A study of Mus musculus with 8 samples.

Results

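The members described are 4 genes of the interferon-induced transmembrane (Ifitm) family, Ifitm1, Ifitm2, Ifitm3 and Ifitm10, of 7 Ifitm genes and 32285 genes counted in the libraries. They were chosen by name and by their measured levels in the cells of this series that carried a single guide. Their levels by treatment, by marker-defined state and with one another in those cells are therefore given as descriptions, with no test of a member. Tests of the members were kept for barcodes without a guide call and for the knockouts. Calls between the treatments are given as counts over all genes only. Ifitm5, Ifitm6 and Ifitm7 had at most 6 UMIs in the single-guide cells of any library and are not described further.

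The cells were OT-I T cells, whose transgenic receptor recognises an ovalbumin peptide, from Cas9 knock-in mice. They had been transduced with a lentiviral metabolic CRISPR library whose vector carries the surface marker CD90.1, and injected into mice bearing orthotopic KPC_OVA tumours, a pancreatic cancer line that expresses ovalbumin. CD90.1+ OT-I cells were sorted from the primary tumour 7 days after transfer and read by CROP-seq, in which the transcriptome and the guide of each cell are sequenced together. All groups carried Cas9 and the library, 3 libraries came from mice given anti-PD-1, an antibody that blocks the PD-1 checkpoint, and 1 library came from mice given the IgG control. The recipients were Cas9 knock-in mice as well. Per the study's methods the mice were young adults of either sex, several mice were given each treatment, and they came from a pair of independent experiments. The labels do not say how these animals were divided among the libraries.

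IFITM proteins are small membrane proteins that sit at the cell surface and in endosomes and hinder the fusion of enveloped viruses with the cell. Ifitm1, Ifitm2 and Ifitm3 are classical interferon-induced genes, and in T cells they are also known to change with activation and differentiation. Ifitm10 is a more distant member that is not known as an interferon target.

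The 3 classical members lie together on chromosome 7 of the GRCm38 build, within 55.9 kb. Ifitm2 is at chr7:140954837-140955987 on the minus strand, Ifitm1 at chr7:140967221-140969825 on the plus strand and Ifitm3 at chr7:141009586-141010770 on the minus strand. Ifitm10, at chr7:142325837-142373753 on the minus strand, starts 1315 kb beyond Ifitm3. The coding sequences of Ifitm2 and Ifitm3 were 77.5% identical, those of Ifitm1 and Ifitm3 66.7%, and those of Ifitm1 and Ifitm2 63.9%, while Ifitm10 shared 44.9 to 50.6% of its coding bases with the others. Of the 50-base stretches of the main transcript, 15 of 833 of Ifitm1, 20 of 606 of Ifitm2, 35 of 629 of Ifitm3 and 0 of 775 of Ifitm10 also occurred in another Ifitm transcript. Most stretches were thus not shared with another Ifitm transcript, and reads from the shared stretches are uncertain. Transcripts of other genes were not searched. A readthrough gene that overlaps Ifitm2 and another that overlaps Ifitm10 on the same strand were not among the counted features.

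The promoter windows are shown because the 3 clustered genes moved together in some cells and apart in others. Windows from 250 bases before to 50 bases after each start (RefSeq, GRCm38.p6) were searched on both strands for the interferon-stimulated response element, GAAA followed by any 2 bases and GAAA, and for the gamma-activated site, TTCNNNGAA. The first was present in 3.44% of 32841 windows and the second in 8.30%. The window of Ifitm2 held 1 response element, and that of Ifitm3 held 2 and a gamma-activated site that overlaps the second of them. The only window of Ifitm1 and the 3 windows of Ifitm10 held neither. The RefSeq start used for Ifitm1 lies inside the gene span given above, and the start of that span (chr7:140967221) was not searched. Printed first are the 250 bases before the RefSeq start of Ifitm1 (chr7:140967826-140968075, plus strand), which lie within its gene span. Those before the start of Ifitm2 (chr7:140955962-140956211, minus strand) follow. Last come the sites of Ifitm3, which lie just after its start (chr7:141010723-141010752 and chr7:141010706-141010735, minus strand). Capitals mark the response element, and a match is a description of the letters only.
Ifitm1 upstream: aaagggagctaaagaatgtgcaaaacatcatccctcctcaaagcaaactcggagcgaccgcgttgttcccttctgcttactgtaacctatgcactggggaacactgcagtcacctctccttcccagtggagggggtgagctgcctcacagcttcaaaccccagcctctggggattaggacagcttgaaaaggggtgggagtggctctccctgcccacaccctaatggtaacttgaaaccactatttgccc
Ifitm2 upstream: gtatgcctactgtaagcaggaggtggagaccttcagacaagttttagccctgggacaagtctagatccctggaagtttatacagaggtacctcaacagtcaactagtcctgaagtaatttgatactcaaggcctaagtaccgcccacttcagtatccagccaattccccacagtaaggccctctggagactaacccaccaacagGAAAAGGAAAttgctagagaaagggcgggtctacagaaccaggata
Ifitm3 site 1: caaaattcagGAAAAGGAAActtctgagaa
Ifitm3 site 2: aaacttctgaGAAACCGAAActgccgcaga

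After filtering, 2506, 2577 and 6390 single-guide cells remained in anti-PD-1 replicates 1 to 3 and 11476 in the IgG library, and their median UMI counts were 16786, 16287, 12038 and 6326 in the same order. A further 5524, 5912, 3822 and 6561 barcodes without a guide call were kept. Each of 8 defining T cell and CD8 markers had a UMI in 82.6 to 100% of single-guide cells and each of 3 CD4 T cell markers in at most 0.54%, so the label held. Any pair of libraries shared 2 to 18 barcodes. Guide composition placed anti-PD-1 replicates 1 and 2 together and replicate 3 with the IgG library. The sample titles give replicates 1 and 2 a shared stem, and replicate 3 and the IgG library their own. No label names a batch or says whether replicates 1 and 2 came from separate animals. Counts and SDs over libraries treat them as separate.

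The Ifitm genes spread widely between the anti-PD-1 libraries, and the IgG library lay within their range. The level of Ifitm1, in CPM, the scaled share of all UMIs summed over single-guide cells, was 150 in anti-PD-1 replicate 1, 155 in replicate 2, 442 in replicate 3 and 298 in the IgG library. The level of Ifitm2 was 42.8, 43.0, 102 and 85.0 CPM in the same order. That of Ifitm3, the member best known for restriction of influenza virus, was 9.27, 12.3, 27.4 and 19.5 CPM. For each of these genes replicate 3 was highest, the IgG library came next and replicates 1 and 2 were lowest, so the IgG value lay within the anti-PD-1 range. Ifitm10 kept this order with a smaller spread, at 6.37, 7.78, 13.4 and 9.91 CPM.

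As means of the anti-PD-1 libraries, these levels were 249 ± 167 CPM for Ifitm1, 62.6 ± 34.1 for Ifitm2, 16.3 ± 9.74 for Ifitm3 and 9.17 ± 3.70 for Ifitm10 (SD, n = 3), against 1 IgG library. The fitted log2 fold change of anti-PD-1 over IgG was -0.25 for Ifitm1, -0.43 for Ifitm2, -0.24 for Ifitm3 and -0.09 for Ifitm10. Over all genes, edgeR called 0 of 13637 (0.0%) between the treatments, with 310 at an unadjusted p under 0.05, and DESeq2 called 6. With a term for the guide-composition batches the treatment difference is that of anti-PD-1 replicate 3 against the IgG library, 1 library each, with the spread taken from replicates 1 and 2 alone. EdgeR then called 264 genes, and without replicate 3 it called 3391. With the batch term the log2 fold changes were 0.57, 0.26, 0.49 and 0.43 in the same order of genes, and without anti-PD-1 replicate 3 they were -0.94, -0.96, -0.83 and -0.46. Replicate 3 was thus above the IgG library and replicates 1 and 2 below it, and with 1 IgG library treatment and library cannot be told apart. The barcodes without a guide call had the same order of libraries for Ifitm1, Ifitm2, Ifitm3 and Ifitm10.

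**Figure D1:**
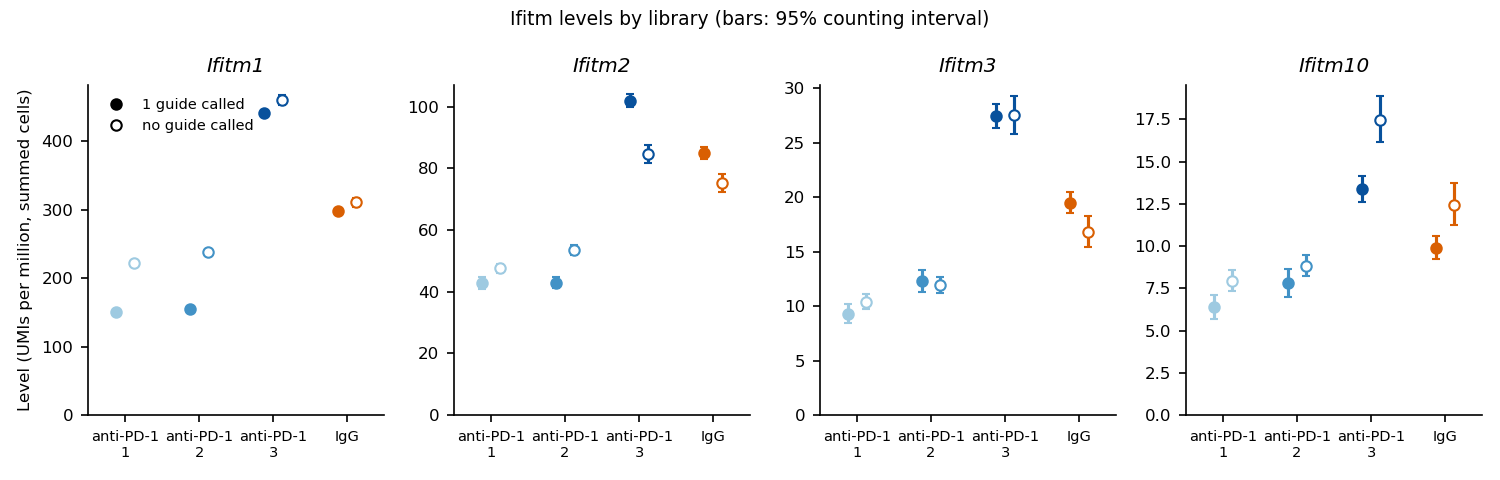
Level of each Ifitm gene (y axis, CPM over summed cells) in the 4 libraries (x axis), in cells with 1 guide called (filled) and barcodes with none (open), with 95% counting intervals. Anti-PD-1 replicate 3 is highest for every gene, and the IgG library lies between it and replicates 1 and 2.

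Because the libraries differed in depth, each cell was also thinned to 2000 UMIs. Ifitm1 then had a UMI in 9.50%, 10.2% and 20.3% of cells of anti-PD-1 replicates 1 to 3 and in 15.1% of IgG cells. The corresponding shares were 5.95%, 5.67%, 12.3% and 10.6% for Ifitm2, and 1.44%, 1.98%, 3.83% and 2.91% for Ifitm3. Ifitm10 was found in 1.36%, 1.55%, 2.64% and 1.94% of cells. The shares had the same order of libraries as the levels, except that replicate 2 fell below replicate 1 for Ifitm2 by less than the counting intervals. The shares depend on the depth. At 4000 UMIs Ifitm10 was found in 2.60% and 3.23% of cells of replicates 1 and 2, above Ifitm3 at 2.40% and 2.92%. In replicate 3 and the IgG library it stayed below Ifitm3. No cell type known to lack these transcripts was sorted beside the T cells, so the part of free RNA in the low shares was not tested.

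Ifitm1 transcripts were concentrated in few cells. Cells with at least 5 Ifitm1 UMIs of 2000 made up 2.08%, 2.60%, 7.15% and 4.72% of the 4 libraries, and they held 59.5%, 59.5%, 72.7% and 68.5% of all Ifitm1 UMIs. The ratio of variance to mean over cells, which is 1 for random sampling at an even level, was 6.34 to 8.82 for Ifitm1. It was 1.76 to 2.14 for Ifitm2, 1.86 to 2.03 for Ifitm3 and 0.98 to 1.15 for Ifitm10. The ratio rises with the level of a gene and stays near 1 for one as low as Ifitm10, so it does not rank the genes by evenness.

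The 3 clustered genes occurred in the same cells. Over 22786 thinned cells, Ifitm1 and Ifitm2 were both found in 1084 cells, where their shares alone would give 368, with odds ratios of 5.93 to 6.96 in the 4 libraries. Ifitm1 and Ifitm3 were found together in 377 cells against 108, and Ifitm2 and Ifitm3 in 267 against 69.9. Among cells with an Ifitm1 UMI, 21.8 to 32.9% also had one of Ifitm2, and among cells without, 3.84 to 7.30% did. Pearson's r of the log counts over cells of a library was 0.24 to 0.38 for Ifitm1 and Ifitm2, 0.22 to 0.26 for Ifitm1 and Ifitm3 and 0.11 to 0.21 for Ifitm2 and Ifitm3. Ifitm10 stood apart, with r from -0.03 to 0.04 with each of the others, and was found with Ifitm1 in 94 cells where 74.7 would be given by the shares. All these values come from cells of the same libraries at equal depth, and reads of the stretches that the clustered genes share could add to them.

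The clustered Ifitm genes followed one another and granzyme genes. Among 2454 other genes found in at least 10% of cells, Ifitm1 had the highest median r with Gzma (0.26), the gene of granzyme A, a protease of cytotoxic granules. AA467197 (0.19), Klra5 (0.18), an NK-type receptor gene, Gzmb (0.18), for granzyme B, and Lgals3 (0.13), for galectin-3, came next. Ifitm2 followed Ifitm1 (0.33), Gzma (0.18), AA467197 (0.15), Gzmb (0.15) and Plac8 (0.11), and Ifitm3 followed Ifitm1 (0.24), Gzma (0.13), Klra5 (0.08), Plac8 (0.08) and Ly6c2 (0.07). For Ifitm10 the highest median r was 0.0429, with Cd52, followed by AW112010, Itgb1 and Pycard. Some granzyme genes found in fewer cells, and so not ranked, had a higher r: Gzmc had 0.28 with Ifitm1, 0.24 with Ifitm2 and 0.15 with Ifitm3, and Gzmf had 0.21, 0.19 and 0.14. Against interferon-induced genes the clustered members had r near 0, between -0.01 and 0.03 by the median with Isg15, Ifit3 and Irf7.

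States were described with lists of marker genes: a cell was called high for a state when its list UMIs of 2000 reached a threshold that at most 10% of single-guide cells passed, or 2% for the interferon list. Granzyme C-high cells had at least 2 UMIs of Gzmc, Gzmd, Gzme, Gzmf and Spp1, which mark strongly activated killer cells. They were 1221 of the thinned single-guide cells, with 1224 cells at 1 UMI just below the threshold.

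The 3 clustered Ifitm genes were several-fold higher in granzyme C-high cells of every library. Ifitm1 was at 926 CPM against 125 in the other cells of anti-PD-1 replicate 1, at 975 against 130 in replicate 2, at 1776 against 337 in replicate 3 and at 1552 against 218 in the IgG library. For Ifitm2 the levels were 205 against 37.6, 187 against 38.5, 475 against 72.6 and 393 against 65.3 CPM. For Ifitm3 they were 47.6 against 8.04, 92.9 against 9.82, 125 against 19.8 and 92.1 against 14.9 CPM. Granzyme C-high cells were above the other cells in 4 of 4 libraries for each of the 3 genes, and even the lowest granzyme C-high level lay above the highest level of other cells. The ratios were 5.27 to 7.50 for Ifitm1, 4.84 to 6.54 for Ifitm2 and 5.92 to 9.46 for Ifitm3. Ifitm10 did not share this, with ratios of 0.62 to 1.19, above 1 in 2 of 4 libraries.

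Among 8477 genes outside the list, 31 (0.366%) were at least 2-fold higher in granzyme C-high cells of every library, and the 3 clustered members were among them. By the median ratio Ifitm1 ranked 4, Ifitm3 ranked 5 and Ifitm2 ranked 6, after Gzmg, another granzyme of the same cluster, Fcer1g, a signalling adaptor, and Serpinb9b, a serpin. Ifitm10 ranked 4488. Barcodes without a guide call had similar ratios, 4.80 to 9.57 for Ifitm1, 5.23 to 6.65 for Ifitm2, 3.32 to 10.7 for Ifitm3 and 0.80 to 1.20 for Ifitm10, over 742 granzyme C-high barcodes.

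The level of Ifitm1 was graded with the number of granzyme UMIs. In the IgG library Ifitm1 was at 192 CPM in cells with 0 list UMIs, 609 with 1, 946 with 2 to 4, 1668 with 5 to 19 and 3231 with 20 or more. In anti-PD-1 replicate 3 the same bins gave 303, 797, 1270, 1627 and 3407 CPM. The level was higher at every step in both libraries, as it was in replicates 1 and 2, whose highest bin held 11 cells each. Ifitm2 was higher at every step in 3 of 4 libraries, and in replicate 2 it went from 104 CPM at 1 UMI to 88.6 at 2 to 4. Ifitm3 was higher at every step in replicate 3 and the IgG library only, with 32.3 CPM at 1 UMI and 24.6 at 2 to 4 in replicate 1, and 39.9 at 2 to 4 and 25.7 at 5 to 19 in replicate 2. Bins of the interferon list showed no such order for Ifitm1, which was at 298, 303, 224 and 369 CPM in IgG cells with 0, 1, 2 and 3 or more UMIs.

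**Figure D2:**
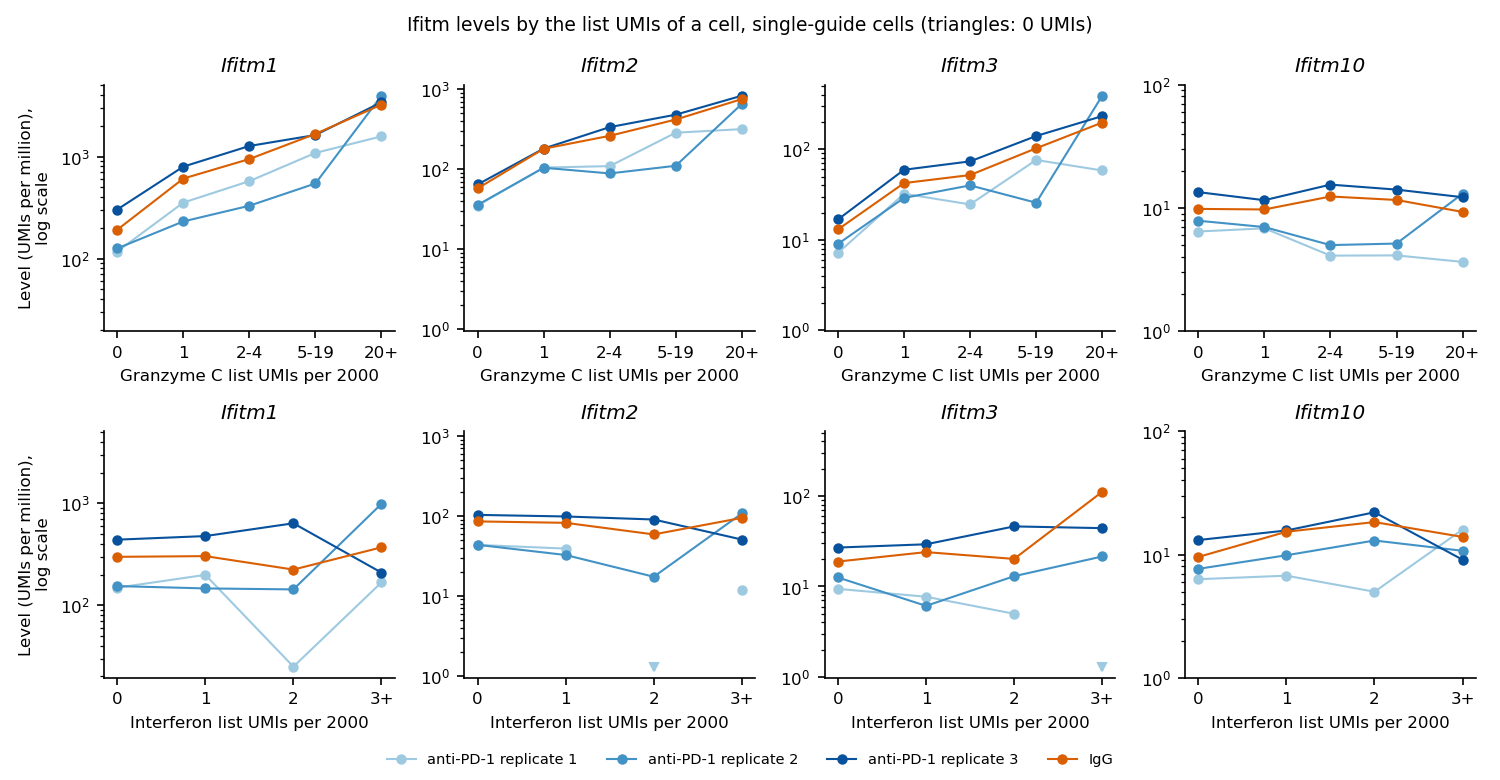
Level of each Ifitm gene (y axis, CPM, log scale) in single-guide cells binned by their UMIs, of 2000, of the granzyme C list (upper row, x axis) or of the interferon list (lower row), 1 line per library. Ifitm1 is higher at every step of the granzyme C list in each library, Ifitm2 and Ifitm3 are higher in the top bin than at 0 in each, Ifitm10 has no common direction, and triangles mark bins with 0 UMIs of the gene.

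Viewed from the other side, cells with at least 5 UMIs of Ifitm1, Ifitm2 and Ifitm3 together (64, 83, 554 and 662 cells) had 43.2 to 51.5 times the granzyme C list level of cells with none. The share of them that was granzyme C-high was 20.3%, 16.9%, 29.2% and 30.7%, against 1.90%, 2.22%, 2.62% and 2.53%. The precursor list, nearly all of whose UMIs came from the chemokine gene Xcl1, was lower in them, at 0.38 to 0.50 times the level of cells with none. The NK receptor list was 1.76 to 2.62 times as high. The effector cytokine list was 0.68, 1.06, 0.57 and 0.41 times as high in the 4 libraries, lower in 3 of 4. The 8 T cell and CD8 markers were 1.004 to 1.10 times as high. Markers of other cells, by their summed level, were 0.74 to 1.12 times as high for 13 myeloid genes and 0.66 to 0.76 times for 8 B or plasma cell genes, the latter lower in 4 of 4 libraries. The summed level of 10 acinar genes was 0.26 to 1.03 times as high. The 3 CD4 T cell markers were at 0.00, 0.61, 2.42 and 4.15 CPM against 0.24, 0.49, 0.53 and 1.27, a higher sum in 3 of 4 libraries, and the part of such cells was not tested. Leaving out every cell with a myeloid UMI gave granzyme C-high ratios of 5.22 to 7.12 for Ifitm1, 5.32 to 6.50 for Ifitm2 and 5.17 to 7.81 for Ifitm3.

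Cells high for NK receptor genes, receptors and adaptors shared by natural killer and cytotoxic T cells, also had more of the clustered members. Ifitm1 was 2.56 to 4.41 times as high as in other cells, Ifitm2 2.02 to 2.90 times and Ifitm3 3.07 to 4.35 times, each in 4 of 4 libraries. Without cells that had a myeloid UMI the ratios of Ifitm1 were 3.68, 1.47, 3.48 and 2.93 and those of Ifitm2 1.73, 2.05, 3.07 and 2.26. Barcodes without a guide call had smaller ratios, 1.70 to 3.08 for Ifitm1, 1.31 to 2.32 for Ifitm2 and 1.76 to 3.53 for Ifitm3. In this state 11 of 8479 genes (0.13%) were at least 2-fold higher in every library, the 3 clustered Ifitm genes among them. Ifitm10 was 1.17 to 1.88 times as high. The NK receptor-high and granzyme C-high cells overlap in their genes, since Gzmf, Gzmd, Gzmg, Gzme and Gzmc had the highest ratios in the former. Without the granzyme C-high cells the ratios in single-guide cells were 1.05 to 2.04 for Ifitm1, 1.08 to 1.72 for Ifitm2 and 1.92 to 2.67 for Ifitm3, still above 1 in 4 of 4 libraries.

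In the opposite direction, effector cytokine-high cells, chosen by Ifng, Tnf, Ccl3 and similar genes, had lower levels of all 4 members in 4 of 4 libraries. The ratios were 0.37 to 0.98 for Ifitm1, 0.46 to 0.62 for Ifitm2, 0.46 to 0.76 for Ifitm3 and 0.41 to 0.57 for Ifitm10. Barcodes without a guide call gave ratios below 1 for every member in every library as well. In hypoxia-high cells, chosen by hypoxia-induced genes such as Bnip3 and Vegfa, Ifitm2 alone was higher in 4 of 4 libraries (1.51 to 1.87 times), and Ifitm10 was lower in 4 of 4 (0.35 to 0.98 times). The 10 genes with the highest ratios in these cells included Gzmg, Gzmd, Gzmf, Gzmc and Gzme. H2-Ab1, an MHC class II gene of antigen-presenting cells, was also among them with a median ratio of 6.14, and the part of such cells was not tested. Without granzyme C-high cells Ifitm2 was 1.35 to 1.98 times as high, in 4 of 4 libraries, and Ifitm10 was lower in 3 of 4 (0.38 to 1.03 times).

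**Figure D3:**
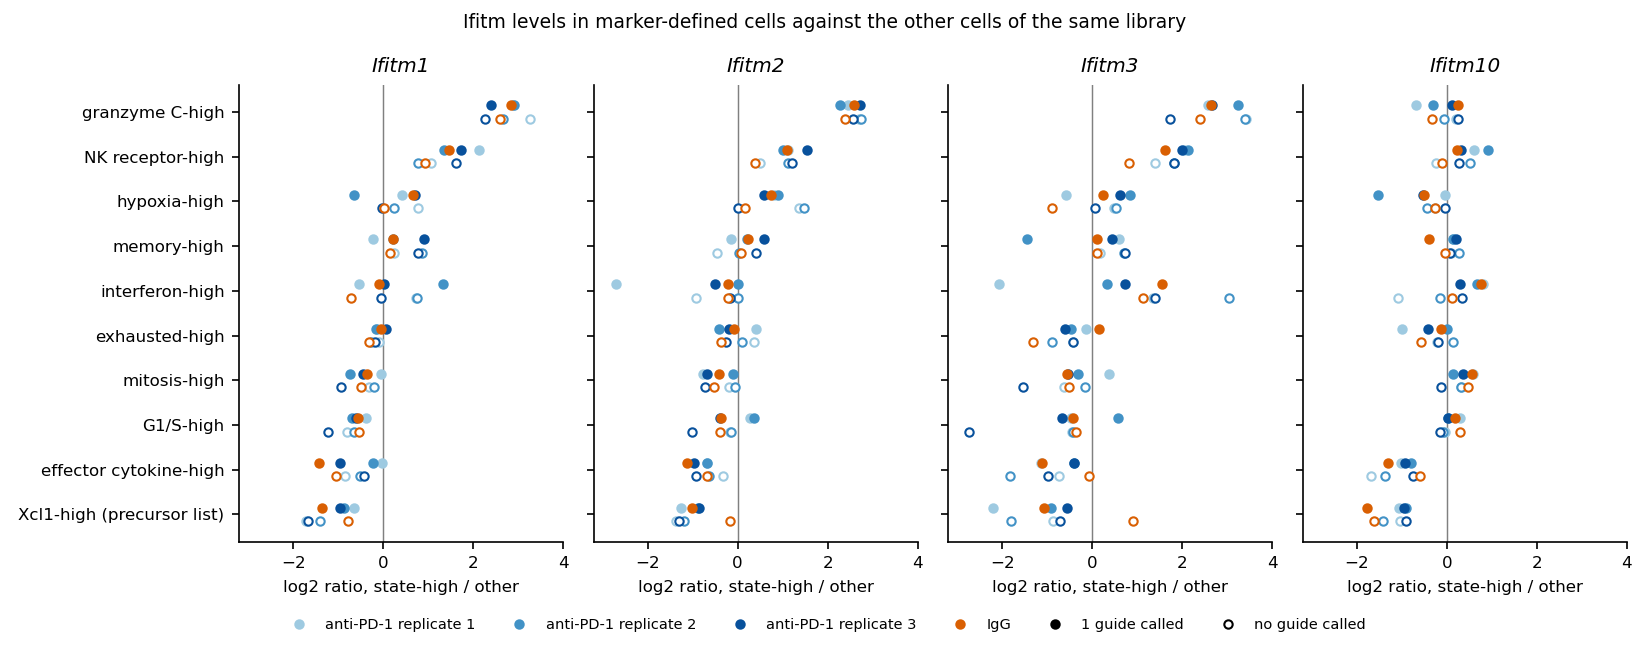
Log2 ratio of the level in state-high cells to that in the other cells of the same library (x axis) for 10 marker-defined states (y axis), 1 point per library, in cells with 1 guide called (filled) and barcodes with none (open). The clustered genes lie right of 0 for granzyme C-high and NK receptor-high cells, and all 4 genes lie left of 0 for effector cytokine-high cells.

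For 5 states the difference was tested in the barcodes without a guide call, which the choice of the genes had not used, with edgeR's quasi-likelihood test on counts summed per library and the library as a block. In each comparison 4 state-high sums were set against 4 sums of the other barcodes, so that an exact sign permutation of 1 gene's 4 ratios cannot give a p below 0.125. Adjusted p-values cover all genes tested.

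Barcodes high for the precursor list had less Ifitm transcript. The list held Tcf7, Slamf6, Xcl1 and other genes of the stem-like T cells that sustain a tumour response, but Xcl1, which activated T cells also make, gave 97.2 to 98.4% of its UMIs in these barcodes, so they are called Xcl1-high. The genes with the highest ratios in Xcl1-high single-guide cells were Il2, Ccl1 and Crtam, and 5 of their 10 leading genes were also among the 10 of effector cytokine-high cells, whose list holds Xcl1 as well. Of the Xcl1-high barcodes, 43.3 to 55.7% were effector cytokine-high, against 4.79 to 6.98% of the others. Ifitm1 was at 71.3 CPM against 233 in anti-PD-1 replicate 1, at 94.6 against 250.1 in replicate 2, at 148 against 470 in replicate 3 and at 184 against 317 in the IgG library. Xcl1-high barcodes were the lower ones in 4 of 4 libraries, with a mean log2 ratio of -1.39 ± 0.43 (SD, n = 4). Ifitm1 fell by 1.34 on the log2 scale (SE 0.08, adjusted p = 2.8e-15, edgeR), Ifitm2 by 0.999 (SE 0.11, adjusted p = 3.90e-09) and Ifitm10 by 1.15 (SE 0.17, adjusted p = 1.8e-06). Ifitm3 fell by 0.69 (SE 0.21, adjusted p = 0.00867), but it was higher in Xcl1-high barcodes of the IgG library, 29.9 against 16.0 CPM. The call of Ifitm3 was lost without anti-PD-1 replicate 2 (-0.20, adjusted p = 0.515, edgeR), without replicate 3 (-0.66, adjusted p = 0.0636) and with DESeq2 (-0.53, adjusted p = 0.486). These states move much of the transcriptome: 3052 of 12082 genes (25.3%) were called lower in Xcl1-high barcodes. The 2211 Xcl1-high single-guide cells had ratios below 1 for all 4 members in 4 of 4 libraries, 0.39 to 0.64 for Ifitm1, 0.42 to 0.55 for Ifitm2, 0.22 to 0.67 for Ifitm3 and 0.29 to 0.54 for Ifitm10.

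Without Xcl1, the list with a threshold of 2 UMIs chose 1585 barcodes, and the members separated. Ifitm3 was at 4.68, 2.88, 4.91 and 7.37 CPM in them against 10.8, 12.5, 28.9 and 17.3 in the others, lower in 4 of 4 libraries, and fell by 1.74 on the log2 scale (SE 0.18, adjusted p = 2.27e-06, edgeR). Ifitm2 fell by 1.06 (SE 0.07, adjusted p = 1.28e-08, edgeR), with ratios of 0.44 to 0.54. Ifitm1 fell by 0.75 (SE 0.18, adjusted p = 0.00824, edgeR), with ratios of 0.83, 1.01, 0.30 and 0.36 in the 4 libraries. Ifitm10 was no longer lower, with a log2 fold change of 0.11 (SE 0.12, adjusted p = 0.613, edgeR). Of 11961 genes, 1045 were called lower with this list.

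Memory-high barcodes, marked by Klf2, S1pr1, Il7r and other genes of recirculating T cells, had more Ifitm1 and Ifitm3. Ifitm1 was at 258 to 752 CPM in them and at 218 to 438 CPM in the other barcodes, higher in 4 of 4 libraries. It rose by 0.51 on the log2 scale (SE 0.09, adjusted p = 0.000676, edgeR), and the library log2 ratios had a mean of 0.51 ± 0.36 (SD, n = 4). Ifitm3 rose by 0.48 (SE 0.11, adjusted p = 0.0045, edgeR), also higher in 4 of 4 libraries, and lost its call without anti-PD-1 replicate 2 (0.37, adjusted p = 0.0774, edgeR) and with the stricter threshold of 3 UMIs (0.16, adjusted p = 0.563). In memory-high single-guide cells the ratios were 0.853 to 1.89 for Ifitm1 and 0.37 to 1.51 for Ifitm3, each above 1 in 3 of 4 libraries, with mean log2 ratios of 0.28 ± 0.47 and -0.08 ± 0.93 (SD, n = 4). Ifitm2 (-0.0035, SE 0.10) and Ifitm10 (0.12, SE 0.10) were not called. Of 12068 genes, 1650 (13.7%) were called higher. Many genes of the interferon response were called higher in these barcodes as well, with counts given beside the interferon lists, and their part in the Ifitm values was not tested.

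Exhausted-high barcodes, marked by Pdcd1, Havcr2, Lag3 and other inhibitory receptor genes, had less of the same pair. Ifitm1 fell by 0.21 on the log2 scale (SE 0.04, adjusted p = 7.40e-05, edgeR) and Ifitm3 by 0.66 (SE 0.11, adjusted p = 8.38e-05), both lower in 4 of 4 libraries. Ifitm2 (-0.03, SE 0.08) and Ifitm10 (-0.17, SE 0.11) were not called, and 1567 of 11942 genes (13.1%) were called lower. In the single-guide cells the exhausted-high ratio of Ifitm1 was 0.895 to 1.05, above 1 in 1 of 4 libraries. That of Ifitm3 was 0.65 to 1.10, above 1 in the IgG library and below 1 in the 3 anti-PD-1 libraries.

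Mitosis-high barcodes, marked by Mki67, Top2a and other genes of dividing cells, had less of all 3 clustered members. Ifitm1 fell by 0.48 on the log2 scale (SE 0.10, adjusted p = 0.0032, edgeR), Ifitm2 by 0.34 (SE 0.10, adjusted p = 0.0201) and Ifitm3 by 0.65 (SE 0.17, adjusted p = 0.0134), each lower in 4 of 4 libraries. The call of Ifitm2 was lost without the IgG library (adjusted p = 0.0796, edgeR) and without anti-PD-1 replicate 3 (adjusted p = 0.0762), and those of Ifitm2 (adjusted p = 0.0562) and Ifitm3 (adjusted p = 0.109) with a stricter threshold of 11 UMIs. Ifitm10 went the other way, with a log2 fold change of 0.24 (SE 0.11, adjusted p = 0.116), and it was called without replicate 3 (0.36, adjusted p = 0.0184). Of 12108 genes, 2125 (17.6%) were called lower.

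Interferon-high barcodes, those with at least 2 UMIs of 15 genes such as Isg15, Ifit1, Ifit3 and Mx1, showed how far the family followed an interferon response. There were 91, 108, 157 and 134 of them in the 4 libraries. Ifitm3 was at 26.2 CPM against 10.2 in anti-PD-1 replicate 1, at 89.4 against 10.8 in replicate 2, at 68.8 against 26.0 in replicate 3 and at 35.3 against 16.2 in the IgG library. It was higher in interferon-high barcodes of 4 of 4 libraries, and replicate 2 had the widest gap. Ifitm3 rose by 1.93 on the log2 scale (SE 0.14, adjusted p = 2.58e-42, edgeR), and DESeq2 gave 1.82 with an adjusted p of 9.85e-09. The ratios of the 4 libraries spread far more than that SE, with a mean log2 ratio of 1.73 ± 0.88 (SD, n = 4) and an exact two-sided sign permutation p of 0.125, the smallest that 4 libraries allow. Without anti-PD-1 replicate 2 the log2 fold change was 1.36 (adjusted p = 2.31e-13, edgeR).

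Few cells carried the Ifitm3 difference. A UMI of Ifitm3 was found in 8, 10, 18 and 6 of the interferon-high barcodes, and the richest barcode held 25.0%, 49.6%, 21.6% and 38.1% of its UMIs. Myeloid markers were also higher in interferon-high barcodes, at 28.1, 37.2, 45.3 and 30.3 CPM against 21.5, 20.7, 29.2 and 25.7 for the 13 genes summed, with 9 to 11 of the 13 at 0. Without any barcode that had a myeloid UMI the Ifitm3 ratios were 3.13, 10.5, 3.70 and 2.72, against 2.57, 8.26, 2.65 and 2.18 with them. B or plasma cell markers were higher as well, though hardly in replicate 3, at 82.3, 91.8, 82.9 and 133 CPM against 65.1, 66.6, 82.8 and 87.8 for the 8 genes summed. Among barcodes with no UMI of these the ratios of Ifitm3 were 3.77, 4.14, 2.47 and 1.99, above 1 in 4 of 4 libraries, and the part of either cell type was not tested. In the single-guide cells, whose 372 interferon-high cells helped to choose the gene, the ratios were 0.24, 1.26, 1.67 and 2.95, higher in 3 of 4 libraries, the first from 1 UMI. Ifitm10 was 1.22 to 1.75 times as high in those cells, in 4 of 4 libraries, from 4 to 28 UMIs.

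The other members did not follow in the same way. Ifitm1 was at 364 against 220 CPM in interferon-high barcodes of replicate 1, at 398 against 236 in replicate 2, at 443 against 461 in replicate 3 and at 190 against 314 in the IgG library. Only 2 of 4 libraries were higher, and the fitted rise of 0.27 (SE 0.07, adjusted p = 0.00054, edgeR) was lost without replicate 1 (0.12, adjusted p = 0.434), without replicate 2 (0.08, adjusted p = 0.676) and with DESeq2 (0.23, adjusted p = 0.779). With a threshold of 3 UMIs it turned to -0.11 (adjusted p = 0.607, edgeR). Ifitm2, whose promoter window holds a response element, had a log2 fold change of -0.23 (SE 0.11, adjusted p = 0.171, edgeR), and Ifitm10 one of 0.02 (SE 0.23, adjusted p = 0.98). Ranked by log2 fold change among 12113 genes, Ifitm3 was 151st, Ifitm1 2435th, Ifitm10 5278th and Ifitm2 8673rd. Of these genes, 725 (5.99%) were called higher and 840 lower, with a median log2 fold change of -0.03.

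The wider interferon pathway rose in the same barcodes, where 5.99% of all genes were called higher. Of 13 tested genes of interferon receptors and signalling, 10 rose and 0 fell, with a median log2 fold change of 0.51. Among them were the transducers Stat2 (1.91, SE 0.17) and Irf9 (1.16, SE 0.12), parts of the complex that binds response elements. Of 21 other antiviral restriction genes, 20 rose, with a median of 1.68, led by the helicase gene Ddx60 (3.03, SE 0.39), the nucleic acid sensor Zbp1 (2.48, SE 0.08) and Eif2ak2 (2.14, SE 0.10), which encodes the kinase PKR. Ifitm3 lay above the median of that list and Ifitm1, Ifitm2 and Ifitm10 below it. All 18 interferon gamma-type GTPase and antigen presentation genes rose, with a median of 0.87, led by the GTPases Iigp1 (4.07, SE 0.30), Irgm2 (2.31, SE 0.26) and Irgm1 (2.15, SE 0.12).

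Of 12 genes of proteins known to bind, process or neighbour IFITM proteins, 3 were called higher, against 5.99% of all genes, and 1 lower. The tetraspanin genes Cd37 (0.28, SE 0.08), Cd82 (0.27, SE 0.09) and Cd53 (0.20, SE 0.07) rose, Vcp (-0.31, SE 0.08), for an ATPase that extracts membrane proteins, fell, and the median was -0.06. In Xcl1-high barcodes, where 25.3% of all genes were called lower, so were 9 of 13 signalling genes, 13 of 21 restriction genes and 13 of 18 GTPase and presentation genes. In those lists 2, 3 and 1 genes were called higher there, where 21.3% of all genes were. Of the 12 IFITM partner genes 6 were called higher and 1 lower, with a median log2 fold change of 0.19. In memory-high barcodes, where 13.7% of all genes were called higher, 7 of 12 tested genes of the list that chose the interferon-high barcodes were called higher and 0 lower, with a median log2 fold change of 0.70. Of the signalling genes 10 of 14 were called higher there and 0 lower, of the restriction genes 11 of 21 higher and 2 lower, and of the GTPase and presentation genes 5 of 18 higher and 2 lower.

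**Figure D4:**
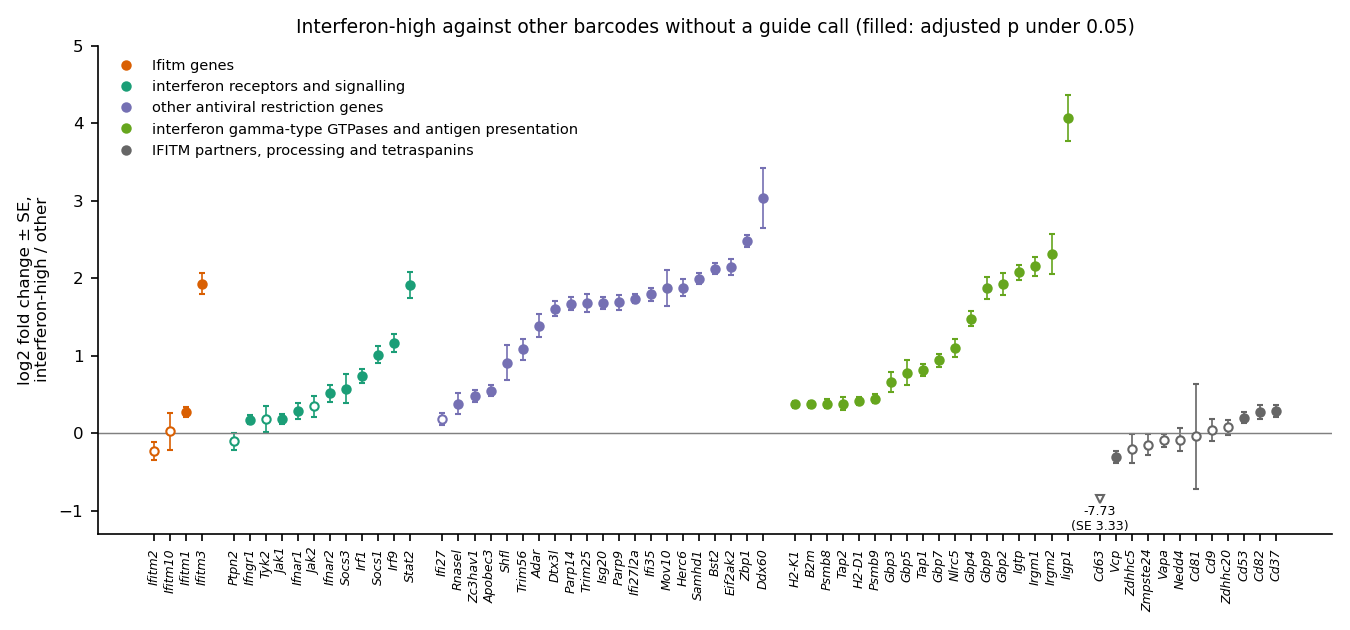
Log2 fold change ± SE (y axis) of genes of the lists (x axis) between interferon-high and other barcodes without a guide call, by list, filled where the adjusted p of edgeR was under 0.05. Ifitm3 (1.93) lies among the risen restriction genes, Ifitm1 (0.27) is filled but low, Ifitm2 and Ifitm10 are open, and Cd63 is drawn as a triangle with its value printed, since it lies below the axis.

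The guides gave a further test, and no Ifitm gene was among the targets compared. Of the genes targeted, 82 had sums of at least 10 single-guide cells in 2 or more libraries, and each was compared with the nontargeting guides (sgNT) in 1 fit with the library as a block. Over all targets, 216 of 754114 tests (0.0286%) were called, and among the 328 tests of the 4 Ifitm genes 1 was called. Between single nontargeting guides the levels already spread widely: in the IgG library Ifitm1 ran from 25.6 to 1214 CPM, with a median of 254, over 30 guides with at least 20 cells.

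The called test was Ifitm2 in cells with a guide against Pik3cd, the gene of the p110 delta catalytic subunit of PI3 kinase, which signals below the T cell receptor. Pik3cd transcript itself was not called (log2 fold change 0.08, SE 0.14), and the transcript level need not fall when Cas9 cuts a coding sequence. Ifitm2 was at 13.2, 35.5, 36.2 and 27.3 CPM in Pik3cd cells of anti-PD-1 replicates 1 to 3 and the IgG library, against 41.1, 47.1, 105 and 88.1 CPM in sgNT cells. All 4 libraries were lower, with the widest gaps in the 3 libraries other than anti-PD-1 replicate 2. Ifitm2 fell by 1.46 on the log2 scale (SE 0.39, adjusted p = 0.0253, edgeR) over 490 Pik3cd cells of 1 guide, so guide and gene cannot be told apart. The call was lost in the anti-PD-1 libraries alone (-1.33, adjusted p = 0.377, edgeR) and without anti-PD-1 replicate 3 (-1.34, adjusted p = 0.566), and over all alternatives the adjusted p ran from 0.00782 to 0.566.

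Ifitm3 had a log2 fold change of -1.76 (SE 0.52, adjusted p = 0.0631, edgeR) in Pik3cd cells, at 2.64, 0.00, 11.8 and 6.002 CPM against 13.4, 12.2, 30.9 and 24.1. All 4 libraries were lower. Ifitm1 and Ifitm10 were not called in Pik3cd cells, and Pik3cd was not among the 3 targets with the smallest p-values for either. Of 9196 genes, 102 (1.11%) were called in Pik3cd cells, 28 of them lower. The granzyme C-high share was 0%, 0%, 1.96% and 1.72% of Pik3cd cells against 4.06%, 2.69%, 9.15% and 5.54% of sgNT cells, and its part in the Ifitm2 fall was not tested. Of the genes most like the clustered members, AA467197 (-1.85, adjusted p = 0.000193, edgeR) and Klra5 (-1.59, adjusted p = 0.0433) were called lower while Gzma (-1.72, adjusted p = 0.127) and Gzmb (-0.57, adjusted p = 0.606) were not. Of the granzyme C list, Gzme was called lower (-5.37, SE 1.43, adjusted p = 0.0261, edgeR). Gzmc (-2.30, adjusted p = 0.348), Gzmd (-5.91, adjusted p = 0.115), Gzmf (-4.04, adjusted p = 0.417) and Spp1 (-2.10, adjusted p = 0.296) were not called.

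No other target was called for a member. For Ifitm3 the next smallest p-values came with Mtmr1 (-1.55, SE 0.53) and Nsd1 (-1.53, SE 0.56). For Ifitm1 they came with Tgds (-1.13, SE 0.45), Rdh12 (0.85, SE 0.44) and Pigm (-1.44, SE 0.76), and for Ifitm10 with Dhodh (-6.31, SE 2.29), Hsd3b6 (-0.92, SE 0.42) and Pik3r1 (-1.02, SE 0.53). Dhodh rested on 50 cells in 2 sums, both with 0 UMIs of Ifitm10, so its fold change depends on the prior count and is no bound. Over the 82 targets the median log2 fold change was -0.28 for Ifitm1, -0.14 for Ifitm2, -0.31 for Ifitm3 and -0.05 for Ifitm10, and all 82 comparisons share the sgNT cells.

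**Figure D5:**
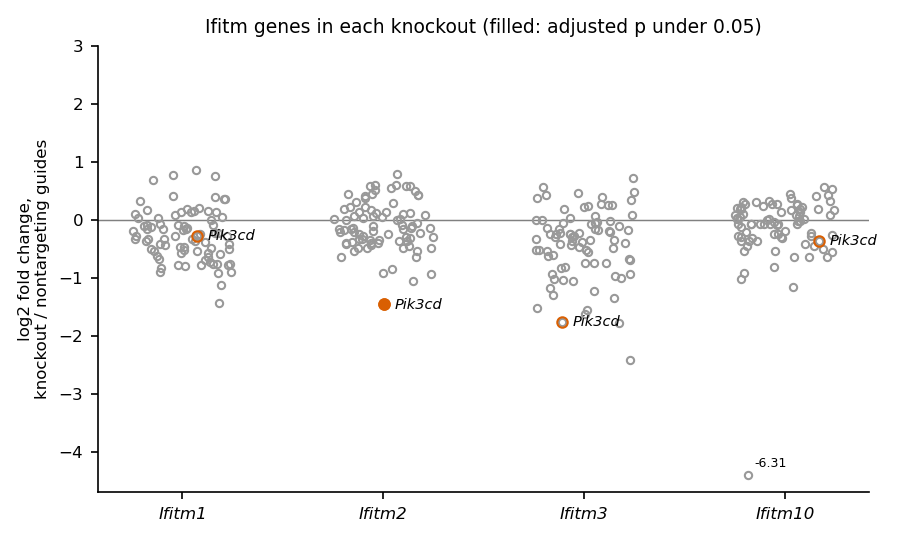
Log2 fold change in the cells of each of 82 targets against nontargeting guides (y axis) for each Ifitm gene (x axis), 1 point per target, with Pik3cd marked and calls filled. Ifitm2 in Pik3cd cells is the only filled point, and the Dhodh value of Ifitm10 is drawn at the lower edge with its number printed.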

How the data were processed

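The deposited values were raw UMI counts per gene and barcode, with guide counts as further features, which the authors made from 10x 3′ libraries with Cell Ranger 3.1.0 on mm10, per the submitters' processing notes. Single-guide cells, and barcodes without a guide call, were kept within 3 median absolute deviations of the median log10 UMI count of their library, with at most 10% mitochondrial UMIs and fewer than 10 UMIs of other cell types' markers. Barcodes with more than 1 guide were left out, and no doublet caller was run. Levels are CPM of summed counts, and shares are of cells thinned to 2000 UMIs, with 95% Clopper-Pearson intervals that cover counting error only. In the IgG library 163 single-guide cells lay below that depth.

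Counts were summed per library and group and tested with edgeR 4.0.16 (quasi-likelihood, TMM, filterByExpr, Benjamini-Hochberg at 0.05) in R 4.3.3, with limma 3.58.1 and, as an alternative, DESeq2 1.42.0. State comparisons had the library as a block. The 82 knockouts were fitted together, with p-values adjusted over the genes within each target, by a block-structured version of the same test that was checked against edgeR, with the dispersion trend from every 5th gene. Simulated data were first run through the edgeR tests of treatment, interferon-high and Xcl1-high barcodes and of 1 knockout. The other states and DESeq2 were not simulated. The p-values of edgeR rest on a spread between sums that is partly shared among genes. They can be smaller than the spread of a gene's own library ratios would give. Descriptions used Python 3.11.15, NumPy 2.4.6, pandas 2.3.3 and SciPy 1.17.1.

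The members, state lists and pathway lists were chosen with earlier results of these data known. Beside the 4 members, the text names per member the 5 genes with the highest median r, per pathway list the called genes with the 3 largest rises and the 3 largest falls in interferon-high barcodes, and the targets with a call or else with the 3 smallest p-values. A few genes that this rule names are not reported here. The genes followed in Pik3cd cells were chosen after that call was seen. Alternatives were another test, scaling, low-count filter, state threshold, thinning depth, batch term, guide UMI minimum and cell filter, and each library left out. Chosen after seeing the data were those without cells that had a myeloid or a B or plasma cell UMI, without cells high for a second state, and with the precursor list without Xcl1.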

Additional observations from a re-analysis of the deposited data

Results flagged for a closer look

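In 2 states the single-guide cells of the IgG library went one way and those of all 3 anti-PD-1 libraries the other. The log2 ratio of Ifitm3 in exhausted-high cells to other cells was 0.14 in the IgG library and -0.61 to -0.15 in the anti-PD-1 libraries. In barcodes without a guide call Ifitm3 was lower in exhausted-high ones in all 4 libraries, the IgG library included. The log2 ratio of Ifitm10 in memory-high cells to other cells was -0.39 in the IgG library and 0.14 to 0.21 in the anti-PD-1 libraries. Neither difference was tested, since the arm given IgG held 1 library.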

How the results depend on the processing

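Between anti-PD-1 and IgG, 0 genes were called, 6 with DESeq2, 264 with the batch term and 0 to 3391 when 1 anti-PD-1 library was left out, the last without replicate 3. In interferon-high barcodes 1565 genes were called, 895 with DESeq2, 1024 with the stricter threshold and 987 to 1483 without 1 library. Memory-high calls (3446) ran from 1904 to 3541 without 1 library. The 216 knockout calls became 329 without the low-count filter, 105 in the anti-PD-1 libraries and 73 to 239 without 1 library, and the 1 call of an Ifitm gene became 0 in the anti-PD-1 libraries and 0 to 1 without 1 library. The 5630 calls in Xcl1-high barcodes became 1875 with the precursor list without Xcl1. The log2 fold change of Ifitm1 in interferon-high barcodes turned to -0.11 with the stricter threshold, and that of Ifitm10 in Xcl1-high barcodes to 0.11 without Xcl1. Of the other alternative fits of an Ifitm gene in a state, 167 kept their side of the threshold, 12 lost a call and 3 gained one. Changes of sign in members that were not called are not counted here. All 48 shares without thinning or at another depth lay outside the counting intervals. Of the levels under another filter or averaging, 8 lay outside theirs and 40 within. Of the mean log2 state ratios, 28 moved by at least their SD over libraries and 94 did not. The causes were not tested. DESeq2 was not run for the knockouts. The library was a block in the state and knockout fits. No paired analysis was possible because the treatment groups share no animals and the IgG group holds 1 library. Few UMIs limit Ifitm3 and Ifitm10 in small states, and 1 IgG library limits every treatment value.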
